A study of Homo sapiens with 12 samples.

Results

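The BCL2 family was examined through 10 of its genes: the BH3-only genes HRK, BBC3, PMAIP1, BCL2L11 and BID, the effector genes BAX and BAK1, and the survival genes BCL2, BCL2L1 and MCL1. They are 10 of the 59653 gene symbols in the authors' count table, were found by name, and all 10 passed the filter on low counts that kept 24671 genes. The family was chosen by results of these same libraries: HRK, on its adjusted p-value and fold change between the groups, had the 4th smallest p-value among the genes higher after ZCCHC17 knockdown. Differences of the 10 genes between the groups are therefore given as a description, without a test. Genes outside the 10 were tested gene by gene, in lists chosen with earlier results of these data known. The labels describe all 12 libraries as total RNA of neurons made from induced pluripotent stem cells, while the sample titles carry the unexplained letters NPC. Markers of progenitors and dividing cells were present too, as given below. IMR-90, a human fibroblast line, was the 1 line used, so differences between lines cannot be seen. The 6 control libraries received a negative control siRNA (siNC), and the 6 others received an siRNA against ZCCHC17 (siZCC), a zinc knuckle RNA-binding protein that the series title links to neuronal splicing. The dose and duration of the siRNA, its sequence and the age of the cultures are not given in the sources used here. Nor do they say whether replicates were separate cultures, so p-values measure the spread between these libraries, which may be technical.

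Proteins of the BCL2 family decide whether the outer mitochondrial membrane is opened during apoptosis. BAX and BAK1 form the pores, BCL2, BCL-XL (the main product of BCL2L1) and MCL1 hold them in check, and BH3-only proteins engage the survival proteins or the effectors through a short helix, the BH3 domain. In neurons that lose trophic support, HRK (Harakiri) and BIM (the product of BCL2L11) are known to be induced downstream of JNK and c-Jun. BBC3 (PUMA), PMAIP1 (NOXA) and BAX are known to respond to DNA damage, among other signals.

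The BH3 domain is the feature that all 10 genes share, and the coding stretch that holds it is shown for each, so that the relation between the genes can be read from sequence. Sequences come from 1 GENCODE v29 (GRCh38) transcript a gene, run 5′ to 3′ on the coding strand, and hold 36 bases. Capitals mark the codons of the conserved leucine and of the glycine (alanine in BBC3) and aspartate that follow it after 3 codons.
HRK (chr12:116881173-116881208, minus strand): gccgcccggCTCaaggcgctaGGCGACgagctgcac
BBC3 (chr19:47226582-47226617, minus strand): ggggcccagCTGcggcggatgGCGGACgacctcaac
PMAIP1 (chr18:59902664-59902699, plus strand): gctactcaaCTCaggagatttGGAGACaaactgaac
BCL2L11 (chr2:111150094-111150129, plus strand): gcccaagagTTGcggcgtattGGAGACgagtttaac
BID (chr22:17739418-17739453, minus strand): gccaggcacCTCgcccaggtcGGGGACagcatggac
BAX (chr19:48955778-48955813, plus strand): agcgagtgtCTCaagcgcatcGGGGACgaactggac
BAK1 (chr6:33575390-33575425, minus strand): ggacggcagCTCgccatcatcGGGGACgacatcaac
BCL2 (chr18:63318352-63318387, minus strand): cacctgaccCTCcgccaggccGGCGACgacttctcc
BCL2L1 (chr20:31721925-31721960, minus strand): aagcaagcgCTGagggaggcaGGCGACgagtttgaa
MCL1 (chr1:150578868-150578903, minus strand): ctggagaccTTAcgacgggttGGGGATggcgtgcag
An in-frame search for a leucine codon, any 3 codons, a glycine or alanine codon and an aspartate codon gave 1 match in each of the 10 genes. The same pattern occurred in 24.8% of 19515 protein-coding genes, so the pattern alone does not define the family. The match lay at codon 37 of 91 in HRK, at codon 29 of 54 in PMAIP1 and at codon 213 of 350 in MCL1. The authors' counts per gene do not separate splice forms, among them the long and short forms of BCL2L1 and MCL1 that are known to act in opposite ways.

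ZCCHC17, the siRNA target, stood at 54.0 to 61.0 CPM (counts scaled to library size with TMM factors) in siNC and at 9.37 to 10.6 CPM in siZCC, with no overlap (log2 fold change -2.51, SE 0.0402; two-sided exact permutation test, p = 0.00216, which is the lower limit for groups of 6). The depth was 90755953 to 120023356 counts a library in siNC, and in siZCC it was 76115083 to 105389055. Markers went with the neuron label in part: 15 of 15 neuron markers averaged at least 1 CPM, but RBFOX3, a marker of mature neurons, reached 1.27 CPM in siNC. All 10 progenitor, 8 astrocyte and 6 dividing-cell markers were also at 1 CPM or more, whereas 6 of 7 microglial markers were below it. Markers are counted below as higher or lower only where the adjusted p was under 0.05 in edgeR's quasi-likelihood test. Of all genes kept, 22.2% were. Dividing-cell markers summed to 523 to 600 CPM in siNC and 400 to 473 CPM in siZCC, with 6 of 6 lower. Neuron markers summed to 3748 to 4197 and 3453 to 3882 CPM, with 6 lower and 1 higher of 15. Progenitor markers had 4 higher and 1 lower of 10 (5957 to 6326 and 6010 to 6535 CPM), astrocyte markers 3 higher and 1 lower of 8 (1637 to 1860 and 1704 to 2025 CPM), and endothelial or fibroblast markers 1 higher and 3 lower of 8 (179 to 409 and 156 to 286 CPM). The part of these shifts in the values below was not tested, and in bulk RNA fewer cells of a type and less RNA per cell cannot be told apart. Counts of IL1B also split each group into 3 libraries with 449 or more and 3 with 12 or fewer, so values within each side of that split are given where they bear on a gene.

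Over the whole table, 22.2% of genes passed the threshold of 0.05 on the adjusted p-value (Benjamini-Hochberg over 24671 genes, edgeR's quasi-likelihood test), 11.4% higher and 10.8% lower in siZCC. Of the 10 BCL2 family genes, 6 lay past that threshold, 4 of them higher (HRK, BBC3, BAX, BCL2) and 2 lower (BCL2L11, BCL2L1). In 2 of them, HRK and BBC3, the groups did not overlap, as in 9.74% of all genes (higher in siZCC in 5.25%). Since the same contrast put the family forward, nothing is read from these shares. Their median log2 fold change was 0.09, beside -0.00 over all genes kept. The count past the threshold was 3 when siNC replicate 4 was left out, and also when 1 of siZCC replicates 3, 5 and 6 was.

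**Figure D1:**
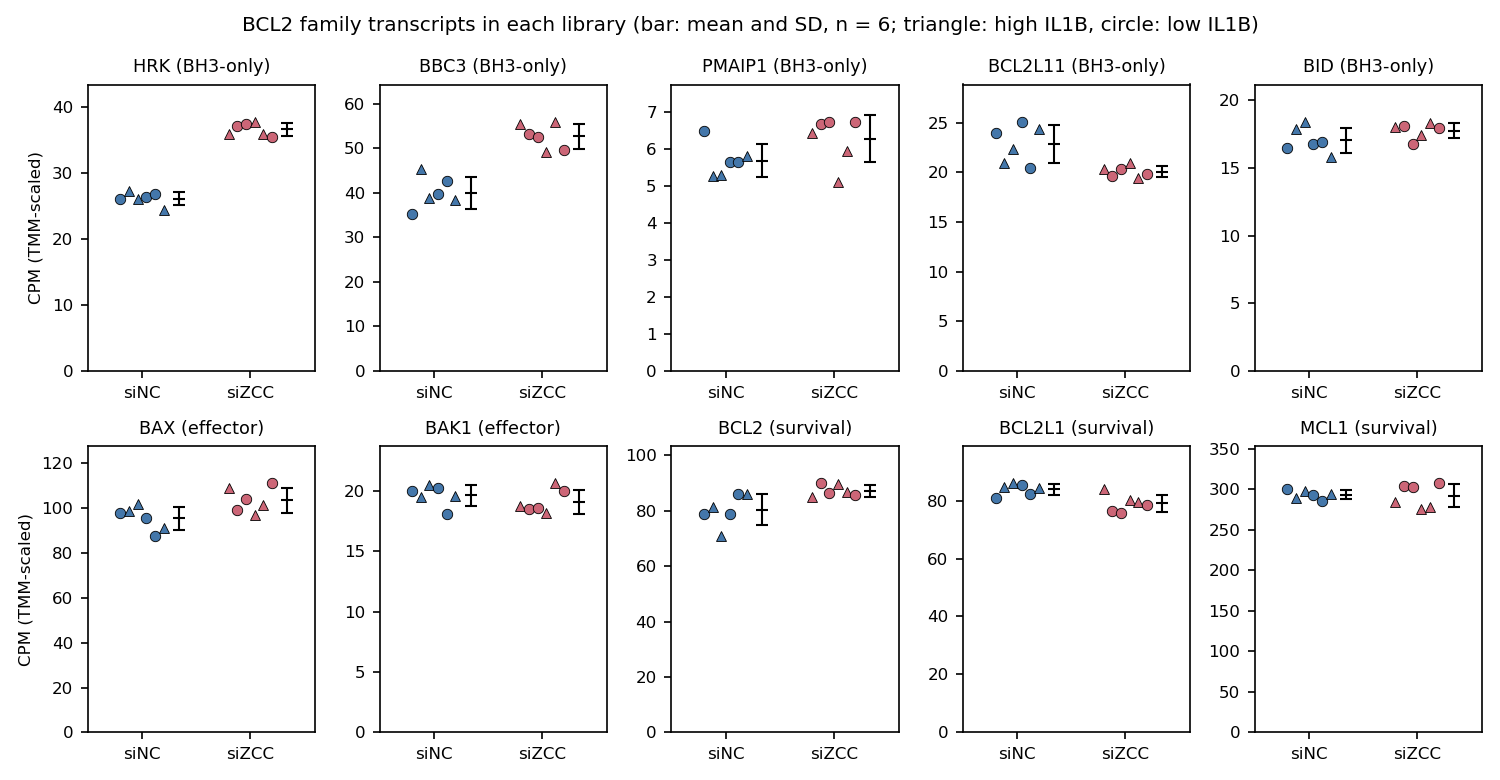
CPM of the 10 BCL2 family genes (vertical axis, from 0) in each of the 12 libraries, by group (horizontal axis); triangles are libraries with high IL1B, circles those with low IL1B, and bars give the mean and SD of 6. The groups separate in HRK (24.4 to 27.2 against 35.4 to 37.8 CPM) and BBC3 and overlap in the other 8.

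HRK stood highest above its controls. It measured 24.4 CPM in the lowest, 26.2 at the median and 27.2 in the highest siNC library, and 35.4, 36.6 and 37.8 CPM in siZCC, on 2417 to 3909 counts per library. Every siZCC library thus lay above every siNC library, with a gap wider than the range of either group. The control mean of 26.1 ± 0.986 CPM compared with 36.6 ± 0.964 CPM after knockdown (SD, n = 6 each), a log2 fold change of 0.49 (SE 0.0318), or 1.40-fold. A larger change in either direction was fitted for 5.60% of the genes kept. HRK also varied little among replicates, with a within-group SD of 0.0475 in log2 CPM, smaller than that of all but 10.1% of genes kept and against a median of 0.125. This is no separate result, since HRK was chosen on a p-value, which a small spread lowers. The comparison was not matched for level, and BCL2L1 varied less still (8.17% of genes kept below it). The log2 fold change was 0.50 among libraries with high IL1B and 0.47 among those with low IL1B, and it was 0.47 to 0.50 when each library was left out in turn.

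BBC3, whose product PUMA binds all the survival proteins, followed. It measured 35.2, 39.2 and 45.3 CPM (lowest, median and highest) in siNC and 49.2, 52.9 and 55.9 CPM in siZCC. Again the groups did not overlap, although siNC replicate 2, at 45.3 CPM, came near the lowest siZCC library. The log2 fold change was 0.40 (SE 0.0519), or 1.32-fold. Its transcript is rich in G and C (69.7%, against 49.6% for HRK), and with counts adjusted for GC content and transcript length the log2 fold change was 0.34, while that of HRK was 0.49.

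BCL2L11, which encodes the BH3-only protein BIM, went the other way from HRK and BBC3. Its values were 20.4, 23.2 and 25.1 CPM in siNC and 19.4, 20.1 and 21.0 CPM in siZCC, and 5 of 6 siZCC libraries lay below all siNC libraries. The siNC libraries were widely spread (SD 1.91 CPM against 0.572 in siZCC), and the groups overlapped. The log2 fold change was -0.19 (SE 0.0481). MIR4435-2HG, a long noncoding RNA annotated across BCL2L11 on the opposite strand, was lower too, from 15.7 to 13.1 CPM (log2 fold change -0.26, adjusted p = 0.0133 in edgeR's quasi-likelihood test), a call that was lost among libraries with low IL1B (-0.12, adjusted p = 0.370). The strand setting of the authors' counting is not given in the sources used here, so reads of this pair may not be fully separated.

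PMAIP1 and BID, the remaining BH3-only genes, overlapped broadly between the groups. PMAIP1, which encodes the MCL1-binding protein NOXA, was the scarcest of the 10. It measured 5.28, 5.65 and 6.48 CPM in siNC and 5.13, 6.56 and 6.74 CPM in siZCC, so that siZCC held both the lowest and the highest value. The log2 fold change of 0.14 had a 95% interval, taken from the normal distribution, from 0.00 to 0.28. BID, which links death receptors to mitochondria once cleaved by caspase-8, ran from 15.9 to 18.4 CPM in siNC and from 16.8 to 18.3 CPM in siZCC. Its log2 fold change was 0.06 (interval -0.02 to 0.14).

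The effectors differed from each other in level and in direction of the estimate. BAX measured 87.4, 96.5 and 101.6 CPM in siNC and 96.8, 102.6 and 110.9 CPM in siZCC. Although 3 of the 6 siZCC libraries lay above all controls, the ranges overlapped. The log2 fold change of BAX was 0.12 (SE 0.0407), and it was 0.07 among libraries with high IL1B and 0.16 among those with low IL1B. BAK1 ran from 18.03 to 20.5 CPM in siNC and from 18.1 to 20.6 CPM in siZCC, nearly the same range (log2 fold change -0.04, interval -0.12 to 0.04).

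Among the survival genes, the estimates pointed in different directions and were small. BCL2 measured 71.0, 80.1 and 86.1 CPM in siNC and 84.8, 86.4 and 89.8 CPM in siZCC, with the control range much the wider (log2 fold change 0.12, SE 0.0402). BCL2L1 measured 81.0, 84.4 and 85.9 CPM in siNC and 75.8, 79.0 and 84.1 CPM in siZCC, where 5 of 6 libraries lay below all controls (log2 fold change -0.09, SE 0.0294). The exception was siZCC replicate 1, at 84.1 CPM. MCL1, which had the most counts of the 10 before any scaling by length, ran from 285 to 301 CPM in siNC and from 276 to 307 CPM in siZCC (log2 fold change -0.01, interval -0.07 to 0.05). BAX, BCL2 and BCL2L1 sat just inside the threshold on the whole table. They were past it in 9, 8 and 10 of 23 alternative fits, while HRK and BBC3 were past it in all 23 and BCL2L11 in 21. PMAIP1, not past it on the whole table, was past it in 2 of the 23. These were the fit with the GC and length correction (log2 fold change 0.18) and that without siZCC replicate 4 (0.20). These fits reuse the libraries by which the family was chosen, so their counts are a description and no test of the members.

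**Figure D2:**
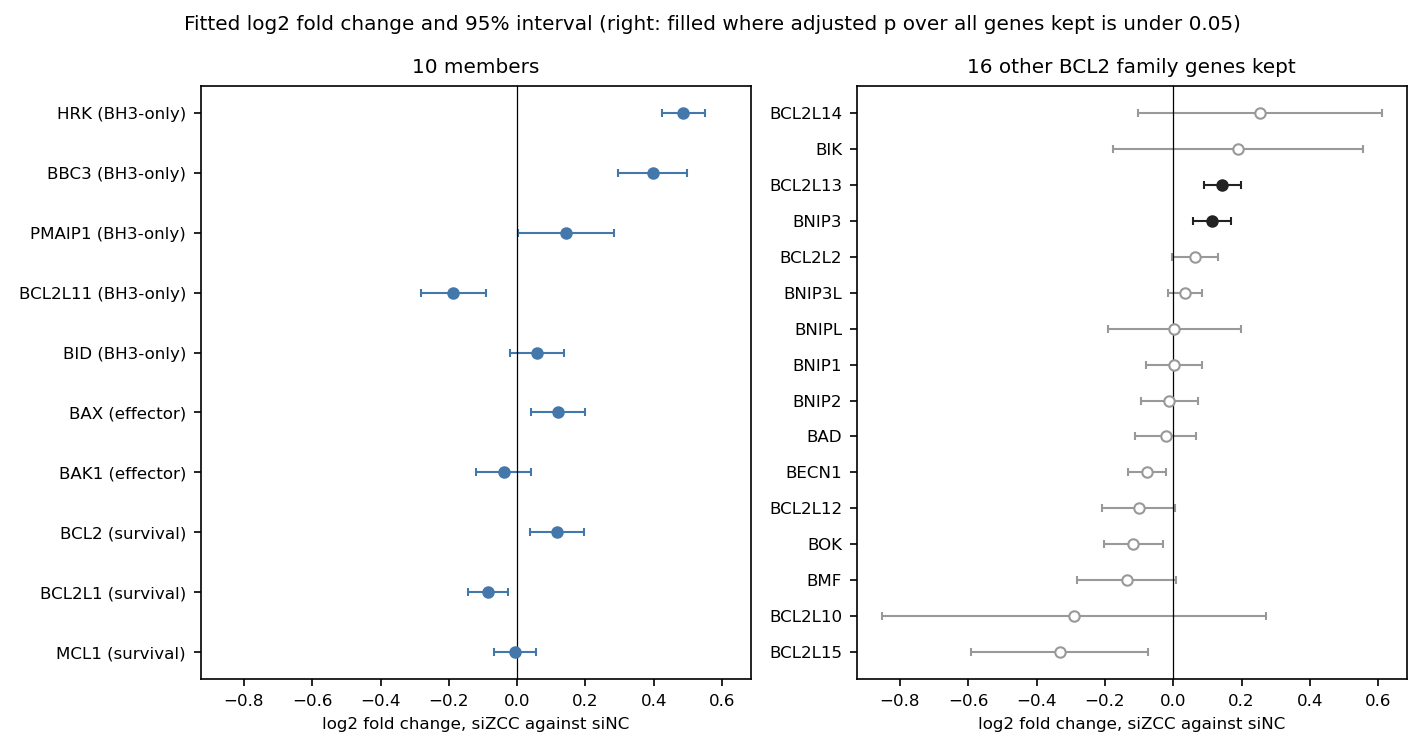
Fitted log2 fold change of siZCC against siNC (horizontal axis) with bars of the 95% interval for the 10 genes (left, a description with no test) and for the 16 other BCL2 family genes kept (right, filled where the adjusted p is under 0.05). HRK at 0.49 and BBC3 at 0.40 lie to the right of the other members, and on the right BCL2L13 and BNIP3 are filled.

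Levels of different genes were compared as CPM per kilobase of merged annotated exon. In siNC the order was MCL1 (67.2), BAX (36.8), BCL2L1 (25.3), BBC3 (12.6), BAK1 (8.87), BCL2 (6.83), BID (3.84), HRK (3.81), BCL2L11 (3.43) and PMAIP1 (2.55). Neighbours in this order did not overlap between libraries except BID with HRK and HRK with BCL2L11. In siZCC HRK, at 5.34 ± 0.141 (SD, n = 6), stood above BID at 3.995 ± 0.130. That change of rank depends on the length used: with the longest annotated transcript as the length HRK stayed below BID in both groups, at 4.51 and 6.84 in siNC and at 6.33 and 7.12 in siZCC. Within the BH3-only group HRK made up 14.6% ± 0.397 of the summed level in siNC and 16.9% ± 0.772 in siZCC, BBC3 47.9% ± 2.56 and 52.2% ± 1.32, and BCL2L11 13.1% ± 1.44 and 9.52% ± 0.496 (SD, n = 6 each). The summed BH3-only level was 25.1 to 27.8 in siNC and 30.4 to 32.7 in siZCC, and that of the survival genes was 97.4 to 100.2 and 94.98 to 101.3. The BH3-only sum holds HRK, which the same contrast put forward, and BBC3, which went from 12.6 to 16.6. BCL2L11 went from 3.43 to 3.02. Nothing about the BH3-only genes as a group is read from these sums. On the longest transcript BAX stood at 70.2 and MCL1 at 74.7 in siNC, with overlapping ranges, and at 76.2 and 74.3 in siZCC, and BCL2 stood above BAK1.

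**Figure D3:**
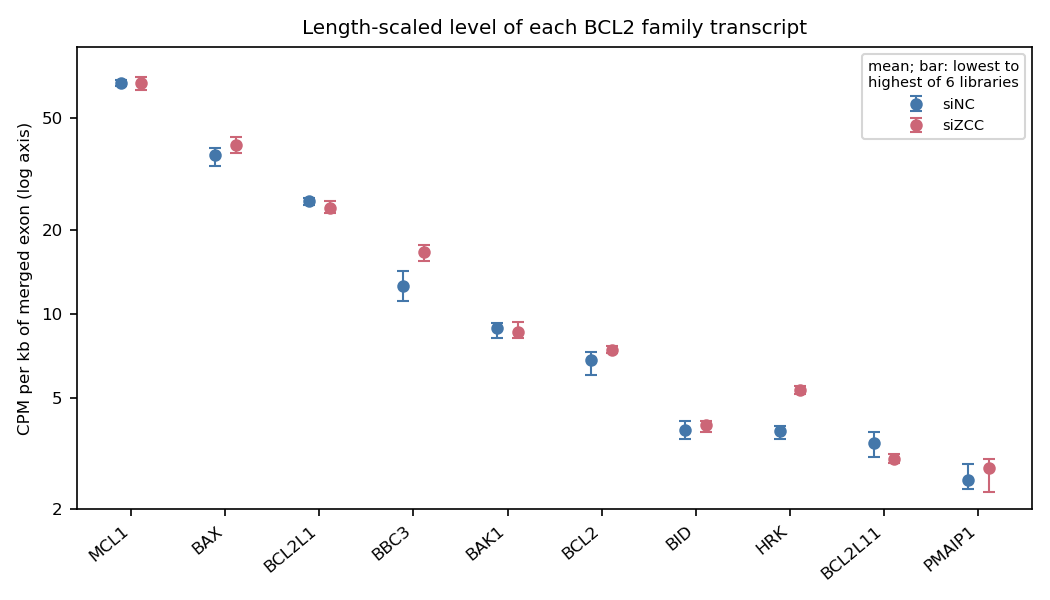
CPM per kilobase of merged exon (vertical log axis) of the 10 genes in order of their siNC mean, with points for group means and bars from the lowest to the highest of 6 libraries. MCL1 is highest at 67.2 in siNC, and HRK moves from 3.81 to 5.34, past BID on this length but not on that of the longest transcript.

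Promoter windows from RefSeq (GRCh38.p14), 250 bases before to 50 after an annotated start, are shown for HRK and BBC3, the members whose groups did not overlap. Capitals mark matches to the AP-1 motif TGANTCA, which JUN proteins bind.
HRK promoter (chr12:116881392-116881691, minus strand): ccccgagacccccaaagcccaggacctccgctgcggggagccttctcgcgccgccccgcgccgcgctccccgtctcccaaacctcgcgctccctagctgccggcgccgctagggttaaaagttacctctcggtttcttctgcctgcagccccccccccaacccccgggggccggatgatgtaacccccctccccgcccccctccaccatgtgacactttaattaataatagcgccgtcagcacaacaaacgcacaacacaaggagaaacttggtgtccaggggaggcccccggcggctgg
BBC3 promoter (chr19:47232618-47232917, minus strand): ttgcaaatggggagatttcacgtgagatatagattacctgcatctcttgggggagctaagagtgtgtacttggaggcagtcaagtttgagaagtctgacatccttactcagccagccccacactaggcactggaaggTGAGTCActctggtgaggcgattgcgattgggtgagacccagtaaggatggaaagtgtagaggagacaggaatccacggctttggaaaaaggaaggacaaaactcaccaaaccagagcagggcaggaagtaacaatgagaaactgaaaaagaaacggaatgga
The HRK window holds no match to TGANTCA or to the CRE motif TGACGTCA on either strand, and the BBC3 window holds 1 match to TGANTCA. Only these exact strings were searched for sites of this kind, and variants such as the tgatgtaa in the HRK window were not counted. The absence of a match therefore does not mean that the HRK window lacks a site for JUN proteins. Of 35116 promoter windows of this length, 7.71% hold TGANTCA and 1.85% hold TGACGTCA. A match is a description of letters in this window and not a site, and other starts of these genes may lie elsewhere. The HRK window has 66.3% G and C and that of BBC3 48.0%, against a median of 58.7% over all windows.

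HRK lies at chr12:116856144-116881441 on the minus strand, and no other annotated gene overlaps it. Its nearest protein-coding neighbours among the genes kept are RNFT2, 2513 bases away, and FBXW8, 29515 bases away, both on the plus strand. Neither passed the test: RNFT2 stood at 54.0 ± 2.18 and 56.3 ± 1.98 CPM (log2 fold change 0.06, SE 0.0328, adjusted p = 0.227) and FBXW8 at 60.05 ± 2.30 and 63.1 ± 1.20 CPM (0.07, SE 0.0293, adjusted p = 0.0896; SD, n = 6 each; edgeR's quasi-likelihood test). FBXW8 did pass it with the GC and length correction (0.09, adjusted p = 0.0141) and without siNC replicate 5 (adjusted p = 0.0369). Of the genes that overlap other members, ADAMTSL4-AS1 on the strand of MCL1 had 2.01 and 1.76 CPM (log2 fold change -0.19, adjusted p = 0.105, and 0.0445 without siNC replicate 2).

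Likeness to HRK was measured as the root mean square difference between log2 CPM profiles over the 12 libraries, each centred on its own mean, among 12615 other genes with at least 5 CPM. The 5 nearest were APCDD1 (0.0509), GATM (0.0572), TIMP3 (0.0580), HAPLN3 (0.0628) and FOXB1 (0.0651), against a median of 0.255. Their fitted log2 fold changes ran from 0.39 for TIMP3 to 0.49 for HAPLN3, and the groups did not overlap in any of the 5. These genes were picked for that pattern, so their differences carry no test. Within the family BBC3 was nearest to HRK (0.101) and BCL2L11 farthest (0.351).

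The rest of the BCL2 family was taken as a list of 17 further genes, tested gene by gene with no test of the list. Of the 16 kept, 2 rose and 0 fell, or 12.5%, beside 22.2% of all genes, and their median log2 fold change was -0.00. BCL2L13, a mitochondrial member linked to mitophagy, rose from 75.7 ± 2.56 to 83.7 ± 1.63 CPM (SD, n = 6 each), a log2 fold change of 0.14 (SE 0.0281, adjusted p = 0.00153), with 6 of 6 siZCC libraries above all controls. BNIP3, a hypoxia-inducible mitophagy receptor, rose by 0.11 on the log2 scale (SE 0.0290, adjusted p = 0.00970), with 5 of 6 above. BOK, a relative of BAX, did not pass (log2 fold change -0.12, adjusted p = 0.0651), though it did with the GC and length correction (-0.15, adjusted p = 0.0122) and without siNC replicate 5 (0.0268) or siZCC replicate 1 (0.0304). The BH3-only gene BMF had a log2 fold change of -0.14 (adjusted p = 0.204). The survival gene BCL2L2 (BCL-w) stood at 30.4 and 31.8 CPM (0.06, adjusted p = 0.207). BCL2A1, BCL2L10, BIK and BCL2L14 were under 1 CPM in both groups. With the GC and length correction 4 of the 16 passed.

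Genes that act on the BH3-only genes were compared next, because HRK and BIM answer to JNK signalling. Of 34 such genes 9 rose and 7 fell, or 47.1% beside 22.2% of all genes, with a median log2 fold change of 0.00. Among those that rose were the stress factors DDIT3 (CHOP; 17.8 ± 1.31 to 22.7 ± 0.872 CPM; 0.35, SE 0.0462, adjusted p = 5.4e-05) and TRIB3 (0.29), and JUND, a partner of JUN (0.24). JUN itself, the factor tied to HRK induction, moved from 211 to 225 CPM (0.09, SE 0.0285, adjusted p = 0.0266), and lost its call on leaving out siNC replicate 4, siNC replicate 6 or any 1 of siZCC replicates 1, 4 and 6 (adjusted p up to 0.0719), and with no filter on low counts (0.0853). Of the 9 kinases of the JNK cascade in the list 4 fell and 5 did not pass. MAP2K4, which activates JNK, fell by 0.15 (SE 0.0283, adjusted p = 0.00110), MAP3K5 (ASK1) by 0.35 (SE 0.0796, adjusted p = 0.00419) and MAPK8 (JNK1) by 0.16 (SE 0.0424, adjusted p = 0.0105). MAP3K13, a relative of the axonal injury kinase MAP3K12, fell by 0.10 (adjusted p = 0.0219), but not past the threshold without siZCC replicate 4 (0.0534) or siZCC replicate 5 (0.0503). MAP3K12 itself, MAP3K11, MAP2K7, MAPK9 and MAPK10 had log2 fold changes of 0.00, -0.00, 0.00, -0.01 and -0.07. PPP1R13B and JUNB fell as well, by 0.21 and 0.18. KCNIP3, whose product DREAM represses HRK, rose by 0.25 (SE 0.0620, adjusted p = 0.0090). Adjusted p-values are from edgeR's quasi-likelihood test. JUN, the kinases other than MAP2K4 and MAP3K5, KCNIP3 and, in other lists, AKT2 and BOK were singled out after their values were seen.

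Downstream of the mitochondrion, 3 of 24 genes rose and 4 fell, or 29.2%, beside 22.2% of all genes. HTRA2 (0.13) and ENDOG (0.16), proteins released from mitochondria in apoptosis, and BIRC6 (0.28), a giant inhibitor of apoptosis, rose, and CASP6, an executioner caspase, fell from 19.0 ± 2.41 to 15.2 ± 1.26 CPM (-0.32, SE 0.0755, adjusted p = 0.00608). CASP2 (-0.11), ACIN1 (-0.08) and BIRC5 (-0.51) were the other falls; BIRC5 (survivin) is also a mitotic gene and moved with the dividing-cell markers. APAF1, CASP9 and CYCS, the core of the apoptosome, did not pass (log2 fold changes 0.05, 0.05 and -0.05). ACIN1 lost its call without any 1 of 9 libraries (siNC replicates 1, 2, 4 and 6, siZCC replicates 1, 2, 3, 4 and 6), with adjusted p up to 0.105, and with no filter on low counts (0.0863). ENDOG lost its call with the GC and length correction (log2 fold change 0.11).

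In the death receptor pathway 0 of 17 genes rose and 3 fell, or 17.6%, beside 22.2% of all genes. NGFR, the p75 neurotrophin receptor, fell from 6.44 ± 0.406 to 4.03 ± 0.235 CPM (-0.68, SE 0.0589, adjusted p = 1.2e-06) and RIPK1 by 0.28 (SE 0.0402, adjusted p = 1.30e-04), both with 6 of 6 siZCC libraries below all controls. CASP8, the caspase that cleaves BID, fell by 0.25 (SE 0.0636, adjusted p = 0.00848; edgeR's quasi-likelihood test). FAS, a death receptor, had a log2 fold change of -0.06 (adjusted p = 0.378 in edgeR's quasi-likelihood test). Of the list, 8 genes were under 1 CPM in both groups, among them FASLG, TNF and RIPK3.

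Regulators of BCL2 family protein stability had 5 of 20 genes higher and 0 lower, or 25.0%, a share near the 22.2% of all genes. FBXO7 (0.11), PIM2 (0.17), FBXW7 (0.12), a ligase subunit that marks MCL1 for degradation, FBXW11 (0.08) and the kinase AKT2 (0.08) were those 5. Leaving out siNC replicate 3, siNC replicate 4 or siZCC replicate 4 gave 3 calls, all higher, and leaving out siZCC replicate 1 or 3 gave 2. Leaving out siZCC replicate 6 gave 3 calls, 2 higher and 1 lower. FBXW7 lost its call without siNC replicate 3 or 4 and without siZCC replicate 1, 2, 3 or 6, and FBXW11 without siNC replicate 3, 4 or 6 and without siZCC replicate 1, 3, 4 or 6. AKT2 lost its call on leaving out any library but siNC replicates 2 and 4 and siZCC replicate 2. With upper quartile scaling FBXW11 and AKT2 did not pass (adjusted p = 0.0520 and 0.0749), nor with no filter on low counts (0.125 and 0.130; edgeR's quasi-likelihood test).

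**Figure D4:**
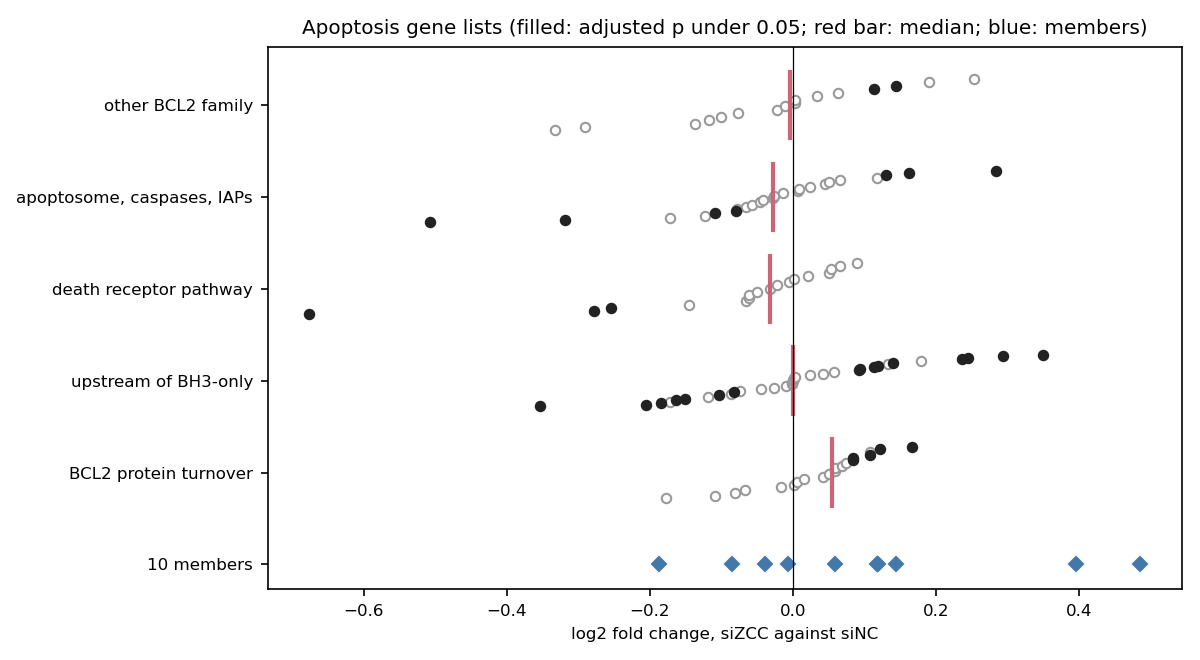
Fitted log2 fold change (horizontal axis) of each gene kept in the 5 lists and of the 10 members (rows); filled points have an adjusted p under 0.05 and red bars are list medians. The medians of the other BCL2 family and of genes upstream of BH3-only genes lie at about 0, and HRK at 0.49 and BBC3 at 0.40 are the rightmost members.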

How the data were processed

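The deposited data are a single table of raw gene counts, in which each library has a column and each symbol a row. The submitters' processing notes name bcl2fastq 2.17, STAR 2.7.6a, featureCounts 2.0.1 and the build GRCh38; annotation and strand setting are not given in the sources used here. The labels' protocols name Qiazol for lysis and a NEBNext Ultra II Directional kit for the libraries. Groups and replicate numbers came from the titles, which carry the unexplained letters NPC.

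Counts were analysed in R 4.3.3 with edgeR 4.0.16: filterByExpr, TMM factors and the quasi-likelihood test over all 12 libraries without covariates, with Benjamini-Hochberg adjustment over 24671 genes and a threshold of 0.05. SE is the log2 fold change divided by the square root of F. The procedure was tested on simulated data. Libraries of a group differed by more than counting error in every pair (5.15 to 24.9 times, as chi-square over its degrees of freedom). At a depth of 76115083 counts or more, replicate spread limits precision for genes with many counts. Its common value over all genes was a biological coefficient of variation of 6.55%. For genes with few counts, such as PMAIP1 (384 to 724 a library) and ABALON (3 to 34), counting error adds to it. Lengths, positions and GC content came from GENCODE v29, in which 92.2% of symbols were found; lists of genes were matched by symbol.

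Alternatives were DESeq2 1.42.0 (size factors; Wald test), upper quartile scaling, other count filters, limma 3.58.1 voom, a replicate block, an IL1B term, an offset for GC content and length, leaving out each library and, added after seeing the data, separate fits by IL1B. Members and lists were chosen with earlier results of these data known. The text names the members, up to 4 called genes a list in each direction, all called genes of the other BCL2 family, neighbours and overlapping genes, the 5 genes most like HRK, and genes said to have been singled out (some genes and 1 list are not reported here); genes given with values that did not pass were chosen for their known role.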

Additional observations from a re-analysis of the deposited data

Results flagged for a closer look

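In 48 quantities (library totals and the named genes), or 96 groups of 6, 4 values lay farther from their neighbour than Dixon's criterion at 95% allows; about 4.8 are due by chance. Among the controls, replicate 4 was the shallowest, at 90755953 counts beside 109973707 to 120023356. BIRC5 stood at 29.7 CPM in siZCC replicate 5 against 25.4 to 26.9 CPM in the others of its group. The library siZCC replicate 2 was lowest of its group for TRIB3 (22.3 CPM against 24.8 to 26.2) and highest for FBXW7 (68.7 CPM against 61.2 to 63.4). None of the 10 BCL2 family genes had a library this far from the rest.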

How the results depend on the processing

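HRK kept a log2 fold change of 0.47 to 0.50 and ZCCHC17 one of -2.56 to -2.46 in all 23 alternative fits. Counts of genes past the threshold moved more where margins were thin or libraries fewer. Of the 10 BCL2 family genes, 6 lay past the threshold in the main fit, beside 22.2% of all genes, which is a description and no test of the members. That count was 3 without the filter on low counts. It was 2 among the 6 libraries with high IL1B, 2 among those with low IL1B, and 3 to 5 when each library was left out. The 5481 genes called over the whole table became 2043 and 1602 in these fits of 6 libraries, with 3 a group, and 4484 to 5626 on leaving out each library. The other BCL2 family gave 4 calls with the GC and length offset, 0 with high and 1 with low IL1B (leaving out: 2 to 3). Steps after the mitochondrion gave 3 and 1 (6 to 8) and genes upstream of BH3-only genes 7 and 3 (11 to 15). Protein turnover gave 3 calls under upper quartile scaling, with no filter and with the replicate block, and 0 in both IL1B fits (2 to 6). Fewer samples, and more genes tested without the filter, are part of these settings by construction; other causes were not tested. ABALON, an antisense gene within BCL2L1 at 0.138 CPM in siNC, turned from -0.20 to 0.65 with high IL1B and ran from -1.06 to 0.036 on leaving out each library, with no call.

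Replicate numbers gave no sign of pairing: r between the deviations of a control and the knockdown library of its number was -0.08 to 0.02, and 0 of 6 siNC libraries correlated best with their own number. With the replicate block 4 of the 10 BCL2 family genes lay past the threshold, a description from which nothing is read about the family. The log2 fold change was 0.49 for HRK and -2.51 for ZCCHC17. In that fit JUN, ACIN1, FBXW11 and AKT2 lost their calls (adjusted p = 0.0712, 0.0898, 0.0720 and 0.0775 in edgeR's quasi-likelihood test) and BOK gained one (0.0358).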

Other observations

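MCL1, PMAIP1 and BCL2L1 were singled out after their values were seen. In siZCC the 3 libraries with low IL1B had 302 to 307 CPM of MCL1 and the 3 with high IL1B 276 to 284 CPM, while in siNC these sets ran from 285 to 301 and from 289 to 298 CPM. PMAIP1 ran from 6.69 to 6.74 CPM in the siZCC libraries with low IL1B and from 5.13 to 6.44 CPM in those with high IL1B. In siNC its values were 5.64 to 6.48 and 5.28 to 5.81 CPM. The fitted log2 fold change of MCL1 was 0.06 within the low and -0.08 within the high IL1B libraries. BCL2L1 went the other way in siZCC, with 75.8 to 78.4 CPM in the libraries with low IL1B and 79.6 to 84.1 CPM in those with high IL1B. In siNC BCL2L1 ran from 81.0 to 85.4 CPM with low IL1B and from 84.3 to 85.9 CPM with high IL1B. These differences were not tested.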
